A study of Mus musculus with 82 samples.

Results

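Ccnd1 and 6 neighbours on distal mouse chromosome 7 are described here across 13 models of mammary tumour. The 7 genes, of 47480 in the count table and 22847 tested, are Shank2, Cttn, Ppfia1, Fadd, Ano1, Ccnd1 and Tpcn2 in chromosome order. They were chosen from earlier results on these same libraries, in which the model named 2153 stood above the rest, so their levels in 2153 are given as a description with no test. Only comparisons that leave 2153 out, or that concern other genes, are tested.

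Cyclin D1, the product of Ccnd1, binds the kinases CDK4 and CDK6, and the complex phosphorylates the retinoblastoma protein so that E2F transcription factors can switch on genes of DNA synthesis. In the mammary gland cyclin D1 is needed for the growth of the milk-forming alveoli in pregnancy, and it is a known driver of breast cancer. The human counterparts of these 7 genes lie side by side in a chromosome segment that is often gained in copies in breast and head and neck cancers. DNA copy number was not analysed here.

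Messenger RNA was sequenced from 82 untreated mammary tumours, each a separate tumour per the series' description, stored frozen and homogenised whole. BALB/c mice carried 64 of them in 9 models, namely 2153 (n = 7), 2208 (n = 12), 2224 (n = 4), 2225 (n = 10), 2250 (n = 11), 2336 (n = 5), 4T1 (n = 5), 9263 (n = 7) and T12 (n = 3). FVB mice carried 15, namely MMTV-NEU (n = 8), MMTV-PYMT (n = 5) and KPB1-A (n = 2), and C57BL/6 mice the 3 of E0771. The labels give neither genotype, age nor the way each tumour was raised, so strain and model cannot be told apart. 4T1 and E0771 are names of mouse mammary cancer cell lines, and an MMTV name denotes a transgene under the long terminal repeat of mouse mammary tumour virus, a promoter active in mammary epithelium. Libraries of 1 line may descend from the same tumour or clone, in which case the spread within a model measures that line only.

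Library totals ran from 14.44 to 132.7 M counts (median 58.19 M) and, within 2153, from 29.43 to 119.8 M. The lowest count of any of the 7 genes in any library was 20. For 81 of the 82 libraries the most similar other library was one of the same model. The exception was replicate 5 of MMTV-PYMT, so results on that model are also given without it. Replicate numbers follow accession order and pair nothing. The epithelial genes Epcam and Cdh1 averaged 0.66 and 5.64 CPM (counts scaled to a common library size) in T12 and 0.948 and 2.33 CPM in E0771, against at least 366 and 183 CPM in each of the other 11 models. Krt8, also epithelial, did not follow: it averaged 287 CPM in T12 and 374 CPM in E0771, above 2336 (171 CPM) and 9263 (142 CPM). In bulk tumour RNA, fewer cells of a type and less RNA per cell cannot be told apart.

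The genes span a little over 1 Mb of GENCODE M21 annotation on GRCm38 (mm10). Shank2 (chr7:144001928-144424494) lies on the plus strand. Cttn (chr7:144435733-144471009), Ppfia1 (chr7:144476758-144553729), Fadd (chr7:144577318-144582463), Ano1 (chr7:144588549-144751974), Ccnd1 (chr7:144929931-144939925) and Tpcn2 (chr7:145186524-145284011) lie on the minus strand. The gaps between Shank2, Cttn, Ppfia1, Fadd and Ano1 were 11238, 5748, 23588 and 6085 bp, whereas 177956 bp lay between Ano1 and Ccnd1 and 246598 bp between Ccnd1 and Tpcn2. The wide gap before Ccnd1 holds Fgf3, Fgf4, Gm26793 and Fgf15. Strand use in counting was not given in the sources used here, so reads of Shank2, Cttn and Fadd and of the transcripts that overlap them (Gm14372 and Mir3105, Gm14376, and the antisense Faddos) cannot be told apart.

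Because the genes were high together in 2153, the promoter letters of those with a RefSeq entry (GRCm38.p6) are shown to compare how alike they are: 4 of the 7 genes matched. Each run is minus strand, 5′ to 3′, from 250 bases before to 50 after the RefSeq start, with matches on either strand in capitals. The windows are chr7:144553680-144553979 (Ppfia1), chr7:144582392-144582691 (Fadd), chr7:144738524-144738823 (Ano1) and chr7:145283962-145284261 (Tpcn2).
Ppfia1: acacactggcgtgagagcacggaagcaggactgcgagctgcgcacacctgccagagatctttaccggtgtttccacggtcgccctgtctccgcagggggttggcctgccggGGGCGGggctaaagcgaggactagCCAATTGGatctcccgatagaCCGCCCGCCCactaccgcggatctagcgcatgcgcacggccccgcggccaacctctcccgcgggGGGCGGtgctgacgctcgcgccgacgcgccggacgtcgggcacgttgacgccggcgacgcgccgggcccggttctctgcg
Fadd: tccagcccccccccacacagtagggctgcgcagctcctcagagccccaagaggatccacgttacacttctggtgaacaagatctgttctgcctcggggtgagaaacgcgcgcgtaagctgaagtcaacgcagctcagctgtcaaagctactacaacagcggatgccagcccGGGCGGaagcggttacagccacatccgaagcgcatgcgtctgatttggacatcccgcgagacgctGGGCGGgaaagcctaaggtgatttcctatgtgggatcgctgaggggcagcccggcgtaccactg
Ano1: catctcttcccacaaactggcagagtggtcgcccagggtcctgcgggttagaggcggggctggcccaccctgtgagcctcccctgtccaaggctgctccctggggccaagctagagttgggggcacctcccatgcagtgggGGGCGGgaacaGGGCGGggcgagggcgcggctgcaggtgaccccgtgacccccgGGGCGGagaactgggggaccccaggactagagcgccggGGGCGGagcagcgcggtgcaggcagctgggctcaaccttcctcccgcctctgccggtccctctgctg
Tpcn2: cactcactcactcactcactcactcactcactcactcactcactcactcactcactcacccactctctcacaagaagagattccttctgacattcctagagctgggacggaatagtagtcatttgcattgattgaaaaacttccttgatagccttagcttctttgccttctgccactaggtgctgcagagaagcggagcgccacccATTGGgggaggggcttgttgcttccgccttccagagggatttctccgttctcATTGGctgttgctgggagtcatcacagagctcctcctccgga
The capitals mark the GC box GGGCGG and the CCAAT box CCAAT. A GC box was matched 4 times in Ppfia1, 2 times in Fadd, 4 times in Ano1 and not in Tpcn2, and 35.7% of 32851 RefSeq promoters of this length held one. Ppfia1 and Tpcn2 held 2 CCAAT matches each, which overlap in Ppfia1, and Fadd and Ano1 none, against 37.4% of all promoters. TATAAA (in 13.6% of all promoters), the cAMP response element TGACGTCA (1.79%) and the AP-1 site TGACTCA (5.2%) had no match in these 4 windows. GC content was 70.7% in Ppfia1, 60.3% in Fadd, 71.7% in Ano1 and 51.7% in Tpcn2, with a median of 52.7% over all promoters. No single one of these 5 motifs was common to the 4 windows. The RefSeq start of Ano1 lies 13401 bases inside the GENCODE gene.

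Ccnd1 was the most abundant of the 7 in 2153. It ran from 4322 to 7929 CPM with a median of 6919 over the 7 tumours of 2153, and from 27.9 to 1165 CPM with a median of 394 over the other 75. Every 2153 library stood above every other library. The mean of 6536 ± 1302 CPM (SD, n = 7) was 6.24 times that of 4T1, the next model at 1048 ± 120 CPM (n = 5). Against the mean of the other 12 models' log2 levels, the log2 difference was 3.95 ± 0.13 (SE), or 15.5-fold. Models with little of a gene lower such a reference, here and below, so these differences exceed those from plain means. The plain mean of the other 12 was 521 CPM for Ccnd1, 25.6 CPM for Shank2 and 341 CPM for Ano1.

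Cttn, Ppfia1 and Shank2 encode proteins of the cell cortex and its scaffolds. Cttn encodes cortactin, which binds the ARP2/3 complex at branched actin, and measured 1107 to 1541 CPM in 2153 (median 1138) against 82.5 to 642 CPM (median 298) elsewhere. All 7 libraries stood above all others, 6 of them between 1107 and 1175 CPM and replicate 1 alone at 1541. The log2 difference of 2.23 ± 0.07 was the smallest of the 7 genes. Ppfia1 encodes liprin-alpha-1, a scaffold of the cell edge and of focal adhesions, and measured 549 to 958 CPM (median 768) against 68.8 to 298 CPM (median 110), again without overlap (log2 difference 2.78 ± 0.07). Shank2 encodes a scaffold best known from excitatory synapses. It measured 70.3 to 150 CPM (median 117) against 0.24 to 79.7 CPM (median 37.5), a log2 difference of 3.34 ± 0.14. Replicate 1, the lowest of 2153 for Shank2, lay below 2 of the 75 other libraries, and the remaining 6 lay above them all.

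Fadd, the adaptor that joins death receptors to caspase-8, measured 72.1 to 107 CPM in 2153 (median 97.2) and 11.4 to 31.9 CPM elsewhere (median 17.1). The groups did not overlap, and the log2 difference was 2.50 ± 0.06. Tpcn2, a cation channel of endosomes and lysosomes, measured 145 to 219 CPM (median 167) against 3.21 to 55.9 CPM (median 12.8), also without overlap (3.62 ± 0.10, 12.3-fold). Ano1, a calcium-activated chloride channel of secretory and pacemaker cells, measured 1238 to 2849 CPM (median 1503). Of the 7 genes Ano1 overlapped most: the other libraries, which began at 2.93 CPM (median 252), reached 2127 CPM, 7 of them exceeded the lowest of 2153, and MMTV-NEU averaged 1617 ± 375 CPM (n = 8) against 1681 ± 548 in 2153. Its log2 difference was 3.44 ± 0.15.

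Gene by gene, 5 of the 7 (Cttn, Ppfia1, Fadd, Ccnd1 and Tpcn2) had no overlap between 2153 and the other libraries, beside 0.757% of all genes tested. A log2 difference of at least 2, which all 7 reached, was reached by 4.44%. Since this contrast chose the genes, nothing is read from those counts. Levels were also set per kb of exon, the merged length of all annotated exons of a gene. That length can exceed the transcript expressed, so comparisons between genes are rough. The means in 2153 were 1388 CPM per kb for Ccnd1, 285 for Cttn, 269 for Ano1 and 57.8 for Ppfia1. They were 32.9 for Tpcn2, 24.2 for Fadd and 10.7 for Shank2. The log2 differences followed neither chromosome order nor level strictly, though the 3 smallest were those of the adjacent Cttn, Ppfia1 and Fadd.

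**Figure D1:**
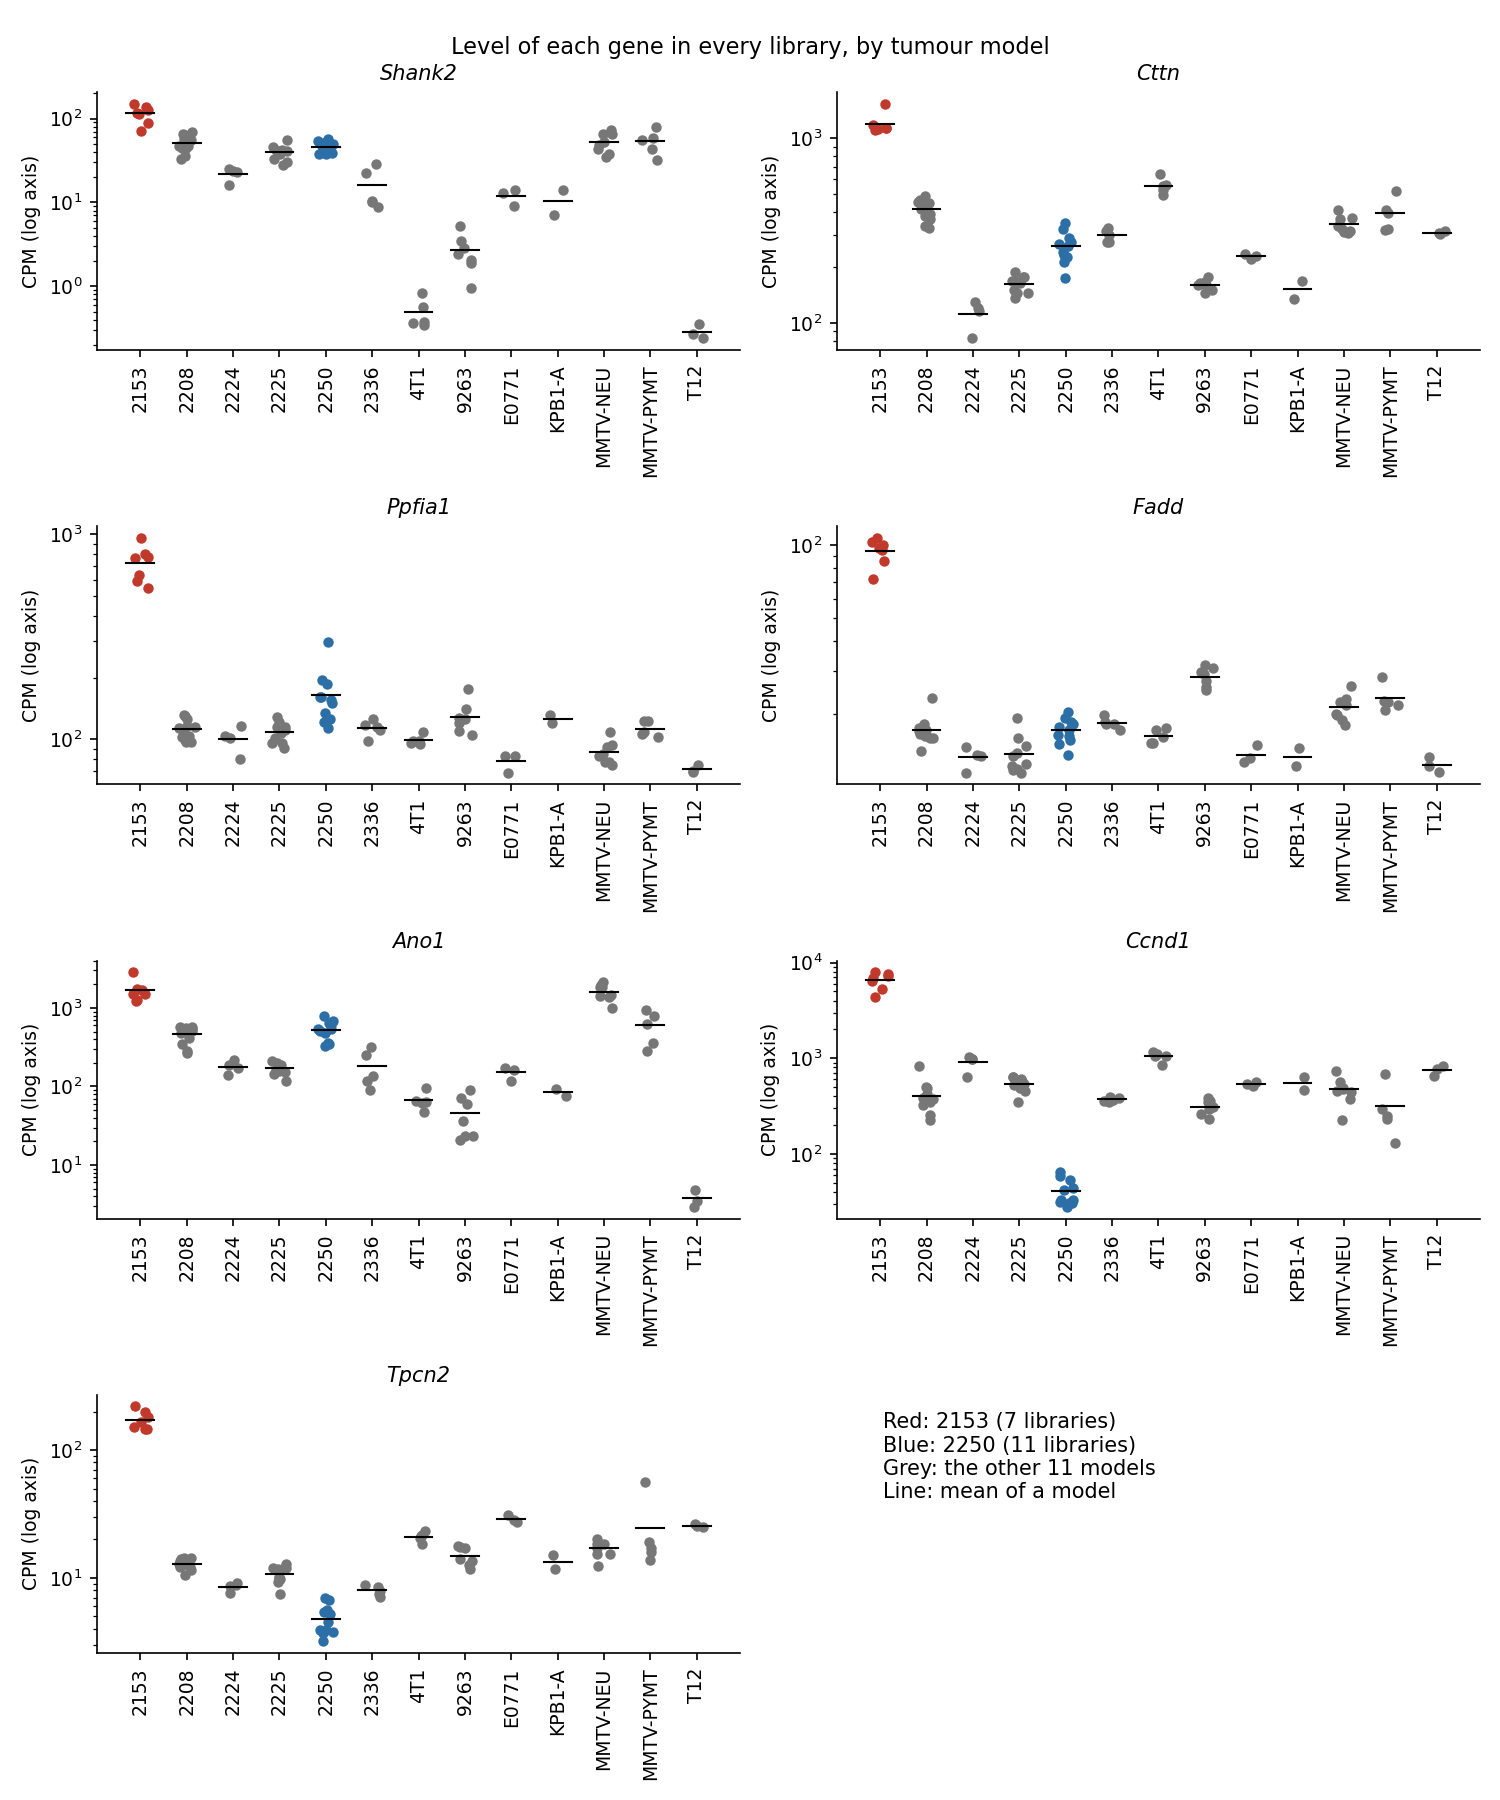
Level of each gene in every library on a log axis (CPM), 1 panel a gene in chromosome order, with 1 point a library and a line at the mean of each of the 13 models. The red points of 2153 lie above all other libraries in 5 panels, and the blue points of 2250 lie below all others for Ccnd1 (27.9 to 63.9 CPM) and Tpcn2 (3.21 to 6.94 CPM).

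Within 2153, replicate 1 was highest for Cttn (1541 CPM, against 1139 ± 23.2 in the other 6), Ppfia1 (958, against 687 ± 108), Fadd (107, against 92.4 ± 11.6), Ano1 (2849, against 1486 ± 204) and Tpcn2 (219, against 165 ± 22). It was lowest for Shank2 (70.3, against 122 ± 21.6) and inside the range of the other 6 for Ccnd1 (7179, against 4322 to 7929). The 7 genes therefore did not share 1 order of libraries within 2153. Titles carry serial numbers whose meaning the labels do not give, and those of 2153 fall into 3 runs: replicate 1, replicates 2 to 4 and replicates 5 to 7. The last 2 runs did not overlap for Ccnd1 (4322 to 6443 and 6919 to 7929 CPM), Ppfia1 (549 to 632 and 768 to 801 CPM), or Tpcn2 (167 to 199 and 145 to 151 CPM). In each run all 7 genes were above every library of another model numbered within 30 of it (1 of 2208, 6 of 2208 and 2250, and 8 of 2208 and 4T1), a range chosen after the data were seen. The genes were chosen for their level in 2153, so nothing is read from that. No library of MMTV-NEU or MMTV-PYMT, which overlapped 2153 for Ano1 or Shank2, was numbered nearby. The part of the numbering in the spread within 2153 was not tested.

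Of the 7 other genes tested within 1 Mb of Ccnd1, Fgf3, Fgf4 and Gm14372 passed the filter on low counts only through the libraries of 2153, so they could only come out higher there and are given as levels with no test. The other 4 (Faddos, Gm26793, Fgf15 and Mrgprf), like the 7 members, also passed it without 2153, and all 4 were higher in 2153. In this comparison 29.4% of all genes were called higher and 23.6% lower. The 3 fibroblast growth factor genes next to Ccnd1 encode ligands used in the embryo. Fgf4 measured 319 to 506 CPM in 2153 and at most 0.0947 CPM in any other library, and Fgf3 measured 14.6 to 19.9 CPM against at most 0.71 CPM. Fgf15 measured 109 to 180 CPM in 2153, 8.61 to 21.6 CPM in 2224, and at most 4.46 CPM in the other 11 models (adjusted p = 2.91e-43). No library outside 2153 reached its range for any of the 3. The antisense RNAs Gm26793 (4.91 ± 1.33 CPM, log2 difference 5.99 ± 0.32) and Faddos (1.7 ± 0.199 CPM, 3.13 ± 0.19) and the orphan receptor gene Mrgprf (3.4 ± 5.03 CPM, 1.61 ± 0.44) also rose. The antisense RNA Gm14372 was at 0.213 ± 0.142 CPM in 2153 and at most 0.0151 CPM as the mean of another model. Gm26793 overlaps Fgf15, Faddos overlaps Fadd and Gm14372 overlaps Shank2. Mrgprf had an SD above its mean and was higher in E0771 (11 CPM).

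Immediately before Shank2, the 3 nearest tested genes rose too. Nadsyn1, which makes NAD, averaged 106 ± 10.5 CPM in 2153 and at most 15.7 CPM in another model (4T1), a log2 difference of 3.67 ± 0.07 (adjusted p = 1.36e-57). Dhcr7, the last enzyme of cholesterol synthesis, averaged 183 ± 17.9 CPM against 27.5 to 138 CPM (1.59 ± 0.12, adjusted p = 2.84e-20). The orphan receptor gene Mrgpre averaged 16.3 ± 6.43 CPM against at most 9.46 CPM in 4T1 (2.90 ± 0.16, adjusted p = 2.53e-27). All 7 libraries of 2153 lay above all others for Nadsyn1 and Mrgpre but not for Dhcr7.

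Within 3 Mb of Ccnd1, 27 of the 50 other genes tested were higher in 2153 and 10 lower, where the rest of chromosome 7 had 176 higher and 651 lower of 1481. Of the 50, 46 passed the filter without 2153, with 23 higher (50%) and 10 lower (21.7%), beside 29.2% and 23.7% of all genes that did so. The same 50 genes gave 27 higher and 10 lower in 2208, the same counts as in 2153. A log2 difference of at least 1 with a mean of at least 1 CPM in the model was seen for 23 of the 50 in 2153 (7.36% of all genes), for 6 in 2208 (6.82%), 13 in 4T1 (9.64%) and 10 in E0771 (12.3%), and for 1 (T12) to 9 in the remaining models. The 23 include 3 genes (Fgf3, Fgf4 and 4933417O13Rik) that were tested only because 2153 expresses them, which raises that count against the others. The 2153 comparison and those of the other models use different reference means, so these values stand side by side with no test of their difference.

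Reading along the chromosome, the higher levels began abruptly. Among genes averaging at least 5 CPM in the other models, a limit chosen after the values were seen, the 10 genes before Chid1 had log2 differences of -0.82 to 0.14. Tspan4, the last of them, was at 0.09 ± 0.18, and Chid1, the next gene and 3.44 Mb from the start of Ccnd1, was at 2.22 ± 0.08. From Chid1 to Ctsd all 6 such genes (Chid1, Ap2a2, Tollip, Mob2, Dusp8 and Ctsd) were at 1.08 to 2.22. From Phlda2 to the end all 8 that were not members were at 0.63 to 3.67 (median 2.14). Against their own references, all 8 were also called higher in 2208 (median 0.55), where 29.4% of all genes were. In 2250, 7 were higher and 1 lower (median 0.46, beside 32.3% and 27.9%). The medians of the 12 other models ran from -1.08 (2224, with 7 lower, beside 15%) to 1.02 (4T1). Of the 25 such genes from Chid1 on, 68% had a log2 difference of at least 1, compared with 2.8% of 857 before Chid1 on the same chromosome and 8.65% of 12242 in the genome. The median before Chid1 was -0.36, the lowest of the 19 autosomes and X, whose other medians ran from -0.29 to 0.64. These genes were named and bounded after their values were seen, so the stretches have no test of their own.

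Of the 25, 8 had a log2 difference under 1, and 7 of these lay between Ctsd and Phlda2. The muscle genes Tnni2 (2.47 ± 0.818 CPM in 2153) and Tnnt3 (0.426 ± 0.929 CPM), the leukocyte gene Lsp1 (22.1 ± 7.55 CPM), the imprinted RNA H19 (6.63 ± 7.02 CPM) and the tetraspanin Cd81 (83.3 ± 19.2 CPM) were at -1.94, -5.14, -0.81, -4.09 and -1.38. Tnni2 and Lsp1 did not pass the test (adjusted p = 0.142 and 0.132). Mrpl23 (0.91), Cdkn1c (0.43) and, beyond Phlda2, Tnfrsf23 (0.63) were the others. The summed level of 4 skeletal muscle markers was 0.926 to 15.9 CPM in 2153, while its median was 1188 CPM in E0771 and 544 CPM in 2224. That of 6 leukocyte markers had a median of 152 CPM in 2153 (84.3 to 233 CPM), below 2208 (186), 4T1 (479), E0771 (411) and T12 (768) and above the other 8 models (51 to 121 CPM). The part of these cells in the exceptions was not tested. Igf2, an imprinted growth factor gene beside H19, had the largest difference of the 25 genes at 9.27 ± 0.45.

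**Figure D2:**
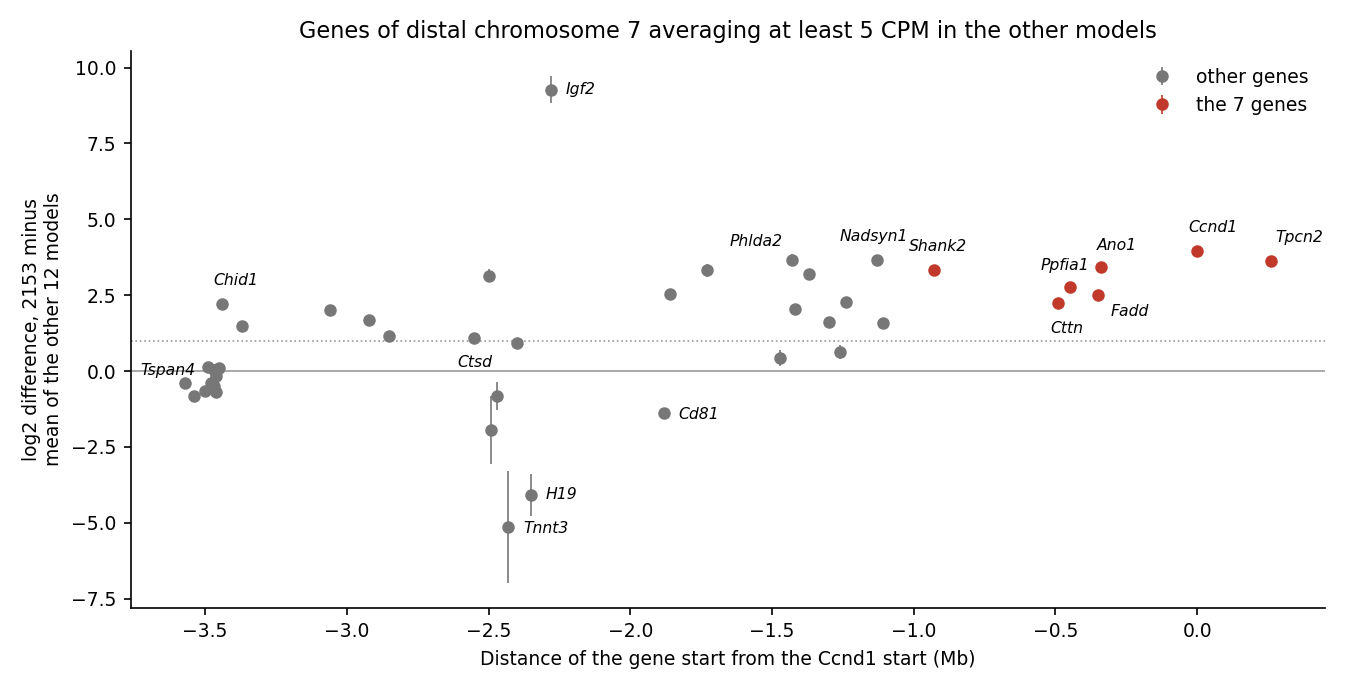
The log2 difference between 2153 and the mean of the other 12 models (± SE) against the distance of a gene's start from that of Ccnd1, for genes averaging at least 5 CPM in the other models. Points step from -0.82 to 0.14 before Chid1 to 1.08 to 2.22 from Chid1 to Ctsd, and the 7 genes (red) lie between 2.23 and 3.95.

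Leaving 2153 out, all 7 genes still differed among the other 12 models by the F test, beside 97.8% of all genes tested. The adjusted p ranged from 5.07e-37 (Shank2) to 1.49e-12 (Ppfia1). Each model was then compared with the mean of the other 11, again as a mean of log2 levels. Of the 84 combinations of gene and model, 31 (36.9%) were higher and 25 (29.8%) lower, where the share of all genes called ran from 24.2% (2224) to 34.4% (2225) higher and from 14.6% (KPB1-A) to 28.3% (MMTV-NEU) lower. The shares of the 7 genes are near those backgrounds. The distance from the lowest to the highest model was 9.54 on the log2 scale for Ano1, 8.21 for Shank2, 5.11 for Ccnd1, 2.83 for Tpcn2, 2.51 for Cttn, 1.32 for Fadd and 1.31 for Ppfia1. Direct neighbours thus ranged from nearly even to widely varying.

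2250 had the lowest Ccnd1 of the 13 models. Its 11 libraries measured 27.9 to 63.9 CPM (median 33.1), all below every library of every other model, of which the lowest was 130 CPM. The mean of 40.7 ± 12.6 CPM was lower than that of the other 11 models by a log2 difference of -3.68 ± 0.18 (adjusted p = 1.5e-30). Tpcn2 followed, at 3.21 to 6.94 CPM (median 4.53) and again below all others (-1.68 ± 0.12, adjusted p = 6.72e-22), where 0.39% of all genes had all 2250 libraries below the rest. On the other side of the gap the direction was reversed: Ano1 (529 ± 147 CPM, 1.93 ± 0.14), Shank2 (46.2 ± 6.77 CPM, 2.21 ± 0.13) and Ppfia1 (164 ± 51.2 CPM, 0.69 ± 0.07) were higher. Cttn (0.03 ± 0.07) and Fadd (0.03 ± 0.06) were not called. With 3 of 7 higher and 2 lower, 2250 stood beside 32.3% and 27.9% of all genes.

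T12 and 4T1 both had lower Shank2 and Ano1 and higher Ccnd1 and Tpcn2 than the other models. In T12 Shank2 was at 0.24, 0.271 and 0.353 CPM (-5.78 ± 0.41, adjusted p = 1.77e-20) and Ano1 at 2.93, 3.52 and 4.87 CPM (-5.85 ± 0.45, adjusted p = 4.16e-19). All 3 Ano1 values lay below those of the other 79 libraries, which 1.78% of all genes showed in T12. Ccnd1 measured 649, 779 and 821 CPM there (0.90 ± 0.22, adjusted p = 0.000333) and Tpcn2 25.1, 25.5 and 26.5 CPM (0.95 ± 0.16). In 4T1 Shank2 was at 0.342 to 0.823 CPM (-4.92 ± 0.30) and Ano1 at 47.9 to 95.8 CPM (-1.33 ± 0.25). Ccnd1 in 4T1 measured 849, 1053, 1058, 1113 and 1165 CPM, the highest outside 2153 (1.43 ± 0.16, adjusted p = 1.07e-11), as did Cttn at 492, 526, 552, 558 and 642 CPM (1.22 ± 0.08, adjusted p = 4.66e-22). Of the 7 genes, 3 were higher and 4 lower in T12 (24.6% and 24% of all genes), where Cttn (0.30 ± 0.11) lost its call without any 1 of the 3 libraries (0.29 to 0.31), and 3 higher and 2 lower in 4T1 (25.4% and 23.5%).

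Epcam and Shank2 were both low in T12 (0.66 and 0.288 CPM) but did not go together in every model. 4T1, with 0.494 CPM of Shank2, held 366 ± 114 CPM of Epcam. E0771, with 0.948 CPM of Epcam and 374 CPM of Krt8, held 12 ± 2.46 CPM of Shank2 and 150 ± 30.5 CPM of Ano1. The part of epithelial cells in these levels was not tested. By model mean, Tpcn2 in E0771 was the highest outside 2153 (27.4, 28.4 and 31.3 CPM, 1.14 ± 0.16, adjusted p = 3.14e-09), and Ppfia1 (-0.47 ± 0.14) and Fadd (-0.34 ± 0.11) were lower. That is 1 gene higher and 2 lower, beside 29.2% and 26.9%. Ppfia1 lost its call without replicate 2 of E0771 (-0.39, adjusted p = 0.058) and Fadd without replicate 3 (-0.29, adjusted p = 0.0717).

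9263 had the highest Fadd outside 2153, at 25 to 31.9 CPM (median 29.1), a log2 difference of 0.84 ± 0.07 (adjusted p = 2.91e-18). Its Shank2 (0.944 to 5.23 CPM, median 2.41) and Ano1 (20.7 to 91.5 CPM, median 36.5) were lower by -2.26 ± 0.21 and -1.89 ± 0.22, and Cttn (-0.72 ± 0.08) and Ccnd1 (-0.48 ± 0.17) were lower as well. Ppfia1 was higher (0.31 ± 0.09). In all 2 genes were higher and 4 lower, beside 32.7% and 22.2%.

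MMTV-NEU and MMTV-PYMT each had 5 of the 7 genes higher, beside 33.8% and 30.6% of all genes. Ano1 in MMTV-NEU measured 986 to 2127 CPM (median 1640), a log2 difference of 3.69 ± 0.15 (adjusted p = 9.02e-35). All 8 libraries exceeded those of the other 11 models, of which the highest was 947 CPM. How many of all genes were set apart in this way in MMTV-NEU was not counted. Shank2 (52.8 ± 14.3 CPM, 2.42 ± 0.14), Cttn (0.46 ± 0.07), Fadd (0.37 ± 0.07) and Tpcn2 (0.30 ± 0.11) were higher, and Ppfia1 (-0.32 ± 0.09) was lower (28.3% of all genes). In MMTV-PYMT Shank2 (2.44 ± 0.16), Ano1 (2.13 ± 0.18), Tpcn2 (0.87 ± 0.13), Cttn (0.68 ± 0.09) and Fadd (0.51 ± 0.08) were higher and none was lower (20.3%). These 5 calls were the same without replicate 5.

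One library of MMTV-PYMT, replicate 4, moved its values for Ccnd1 and Tpcn2. Ccnd1 measured 130, 232, 249 and 292 CPM in the other 4 libraries and 691 CPM in that one. With it the log2 difference was -0.44 ± 0.20 (adjusted p = 0.0524), and without it -0.94 (adjusted p = 8.22e-05), while without replicate 5 it was -0.35 (adjusted p = 0.182). That call also passed in 3 fits that left out a library of another model. Tpcn2 measured 13.8, 16.1, 17.2 and 19.1 CPM in the other 4 and 55.9 CPM in replicate 4, and its difference of 0.87 became 0.31 (adjusted p = 0.0194) without it. Cttn (519 CPM) and Fadd (28.3 CPM) were also highest in that library, whereas Shank2 (31.6 CPM) was lowest.

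2224 measured 630, 977, 979 and 1027 CPM of Ccnd1 (1.20 ± 0.19, adjusted p = 1.24e-07). It had the lowest Cttn, at 82.5, 116, 121 and 130 CPM, below every library of the other models (-1.29 ± 0.11, adjusted p = 7.81e-16). The share of all genes set apart in this way in 2224 was not counted, so nothing is read from that separation. Tpcn2 (-0.78 ± 0.17) and Fadd (-0.37 ± 0.10) were lower and Shank2 (1.03 ± 0.20) higher, giving 2 higher and 3 lower beside 24.2% and 15%. 2225 repeated these directions for the same 5 genes: Ccnd1 (0.39 ± 0.14) and Shank2 (1.96 ± 0.13) were higher, and Cttn (-0.71 ± 0.07), Tpcn2 (-0.43 ± 0.11) and Fadd (-0.32 ± 0.06) lower, beside 34.4% and 26.7%. In 2208 Shank2 (2.38 ± 0.12), Ano1 (1.71 ± 0.14) and Cttn (0.76 ± 0.06) were higher and none lower (29.4% and 24.7%). In 2336 Shank2 (0.56 ± 0.19) and Cttn (0.25 ± 0.09) were higher and Tpcn2 (-0.89 ± 0.15) lower (30.3% and 25.4%). The Shank2 calls of 2224 and 2336 hold on the log2 scale only, where T12 and 4T1 lower the reference. In CPM, 2224 (21.9) and 2336 (16.2) lay below the plain means of their other 11 models (26 and 26.5). Shank2 lost its call without replicate 4 (0.25) or 5 (0.41) of 2336, and Cttn without replicate 1 (0.23) or 3 (0.21). In KPB1-A, with 2 libraries, Cttn (-0.81 ± 0.15), Fadd (-0.37 ± 0.14) and Ano1 (-0.96 ± 0.37) were lower and none higher (14.6% of all genes lower and 25.4% higher). Leaving out either library ended the call of Ano1 (-1.12 and -0.81), and leaving out replicate 1 that of Fadd (-0.25); a model left with 1 library is assumed to vary like the rest.

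**Figure D3:**
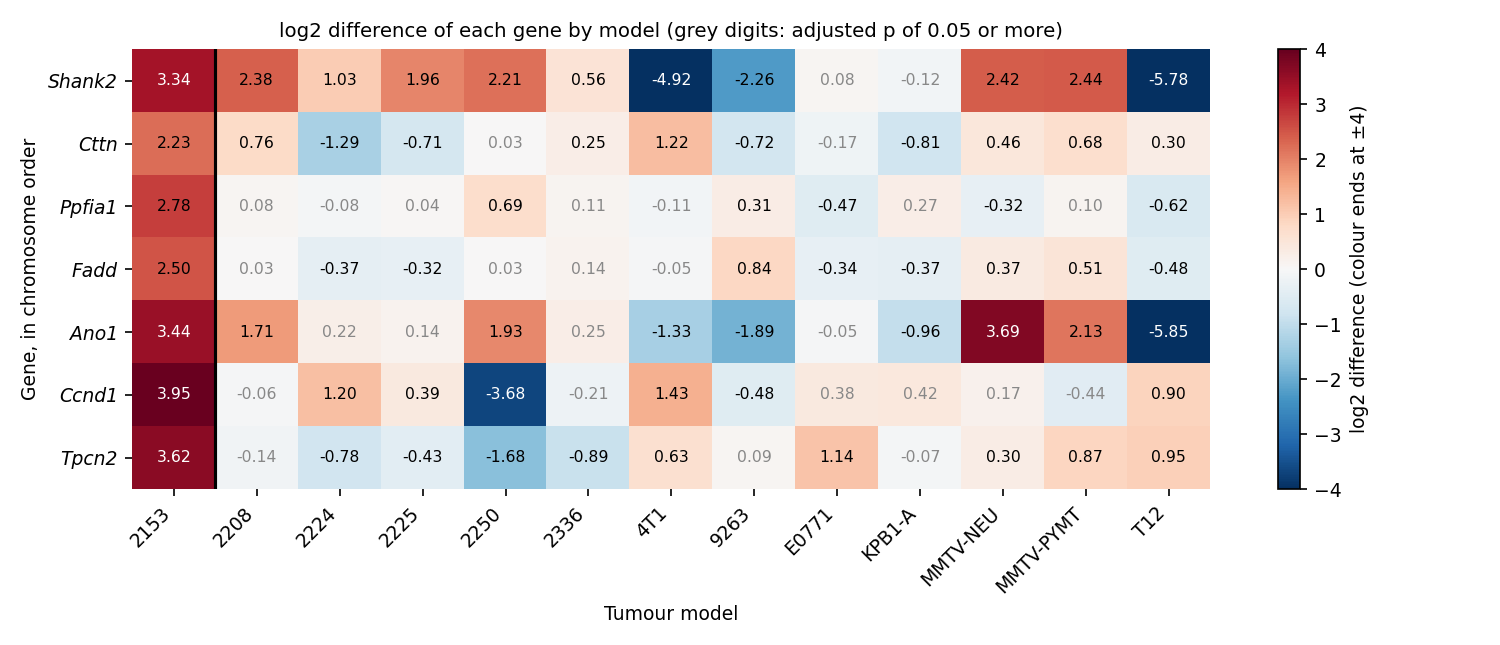
The log2 difference of each gene (rows, in chromosome order) in each model (columns): 2153 against the mean of the other 12, and each other model against the mean of the other 11 without 2153. Grey digits have an adjusted p of 0.05 or more, and 2153 has no test. The 2153 column is high in every row (2.23 to 3.95), whereas 2250 runs from 2.21 for Shank2 to -3.68 for Ccnd1.

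Ordered by mean, the models overlapped with their neighbours in most steps. For Ccnd1 the library ranges of adjacent models overlapped except between 2153 and 4T1, between T12 and KPB1-A, and between 9263 and 2250. For Ppfia1 and Fadd the only gap was that below 2153. For Shank2 the ranges of 2153 and MMTV-PYMT overlapped, and gaps lay between 2225 and 2224, between KPB1-A and 9263, and between 9263 and 4T1. For Tpcn2 gaps lay below 2153, below E0771 and above 2250, and for Ano1 above MMTV-PYMT, above KPB1-A and above T12. For Cttn they lay above and below 4T1, above 2225 and above 2224.

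Outside 2153 the 7 genes had no common pattern across models. Over the 12 model means (log2 CPM), the 21 pairwise Pearson correlations ran from -0.74 to 0.88 with a median of -0.02, and 10 were positive. Shank2 and Ano1 had the highest (0.88), followed by Ccnd1 and Tpcn2 (0.60), while Ppfia1 was opposite to Tpcn2 (-0.74) and Ccnd1 (-0.70). The points of each gene come from the same libraries, so the values are a description with no p. The closest pattern to Ccnd1 among 14482 genes was that of Zcchc24 (0.86), Cisd2 (0.84), Rnf215 (0.84), Sox9 (0.82) and Abhd17b (0.81), and to Cttn that of Cd151 (0.89), Klhl26 (0.87), Ndufa13 (0.86), Gm6055 (0.85) and Ctsd (0.84). These were compared over the 12 models only. In 2153 itself, the 5 genes most like Ccnd1 had log2 differences of -1.11 to 0.70. Cd151 and Ctsd lie on chromosome 7, on either side of Chid1, with log2 differences of -0.15 and 1.08 in 2153.

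Among the D cyclins, which are partly interchangeable partners of CDK4 and CDK6, Ccnd1 was nearly alone in 2153. Per kb of exon it made up 98.8% to 99.3% of the summed level of Ccnd1, Ccnd2 and Ccnd3 there, and 34.4% to 60.6% in 2250. Means of the other 11 models lay between 59.7% (2336) and 93.9% (4T1). These shares rest on the merged exon length of each gene and would shift with the length of the transcript expressed. In CPM, 2250 averaged 40.7 of Ccnd1 and 82.2 of Ccnd3. The sum was 1400 ± 277 CPM per kb in 2153 and 19.4 ± 2.49 in 2250, the highest and lowest means of the 13 models. Ccnd2 averaged 19.9 ± 5.9 CPM in 2153, a log2 difference of -2.27 ± 0.28 (adjusted p = 1.19e-10), and also fell in 2250 (13.3 ± 6.12 CPM, -3.11 ± 0.24, adjusted p = 5.4e-19). Ccnd2 was also low, at 11, 17.8 and 23.6 CPM, in MMTV-NEU, MMTV-PYMT and 2208, whose Ccnd1 lay between these extremes. Ccnd3 was nearly level, at 90.1 ± 16 CPM in 2153 (0.19 ± 0.10, adjusted p = 0.121) and 82.2 ± 9.85 CPM in 2250 (0.06 ± 0.09, adjusted p = 0.607). Without replicate 1 of 2153 (adjusted p = 0.0447), or without T12 and E0771 in the reference (adjusted p = 0.0329), Ccnd3 passed at 0.25.

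**Figure D4:**
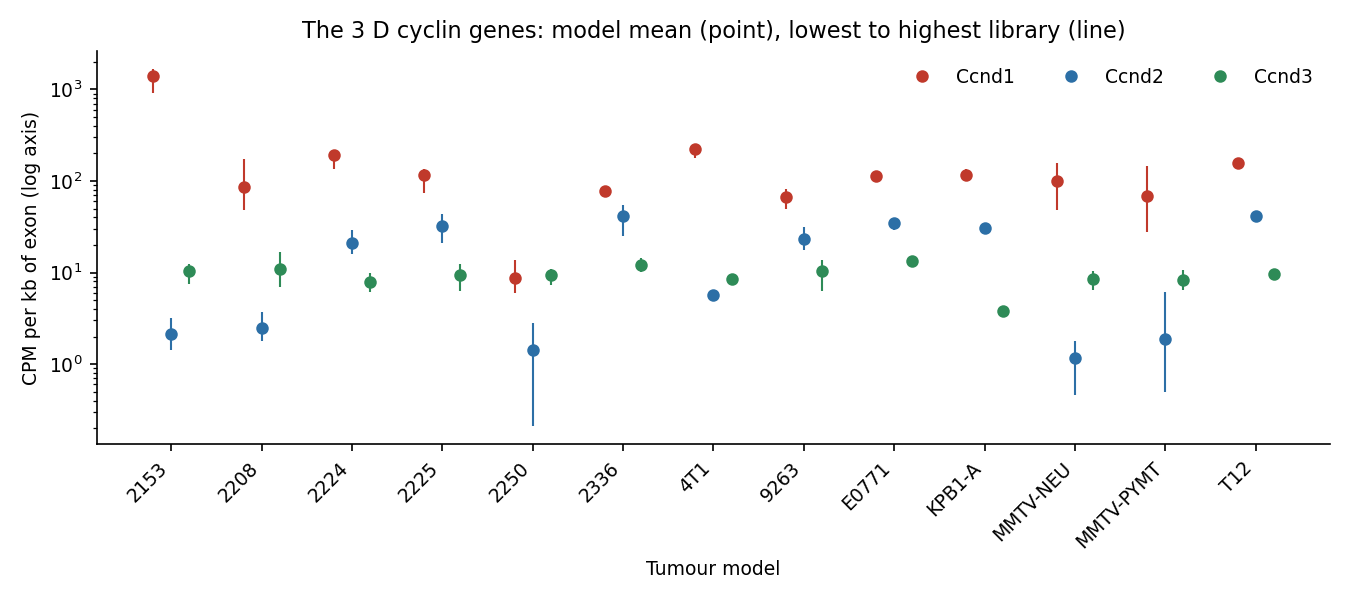
Levels of Ccnd1, Ccnd2 and Ccnd3 per kb of exon on a log axis in the 13 models, with the model mean as a point and a line from the lowest to the highest library. The length is that of all annotated exons of a gene, merged. On it Ccnd1 is at 1388 CPM per kb in 2153 and 8.64 in 2250, where Ccnd3 is at 9.36. Ccnd2 spans 1.17 (MMTV-NEU) to 41.8 (T12).

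The other genes of the cyclin D pathway were mixed in 2153. Of 23 genes of the cyclin D, CDK4/6 and RB axis, 8 rose, 5 fell and 10 did not pass, shares near the 29.4% and 23.6% of all genes, with a median log2 difference of 0.03 beside -0.02 over all genes. Cdkn2a, whose products restrain CDK4/6 and MDM2, rose most, to 164 ± 28 CPM (3.14 ± 0.21, adjusted p = 1.15e-21), while T12 held more (197 CPM) and E0771 almost none (0.217 CPM). Against the other 8 BALB/c models alone the difference was 2.05. Its neighbour Cdkn2b, another CDK4/6 inhibitor (1.25 ± 0.21), and Cdk2, the partner of cyclin E (0.92 ± 0.08), followed. Cdk4 rose to 471 ± 85.6 CPM (0.59 ± 0.09, adjusted p = 3.52e-08), while Cdk6 fell to 57.7 ± 19.3 CPM (-0.53 ± 0.15, adjusted p = 0.00154). Both Cdkn2b (39.2 CPM) and Cdk4 (519 CPM) had higher means in 2225 than in 2153. Ccne1, the cyclin that acts after cyclin D (-1.17 ± 0.17), and Rbl2, which encodes the pocket protein p130 (-0.65 ± 0.10), fell with Rb1 (23.2 ± 6.91 CPM, -0.48 ± 0.18, adjusted p = 0.017). Cdkn1b, which encodes the CDK inhibitor p27, rose as well (0.92 ± 0.11). Rb1 no longer passed without replicate 4 of 2153 (-0.42, adjusted p = 0.0566) or against the BALB/c models alone (-0.23, adjusted p = 0.268).

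E2F target genes of DNA replication rose in 20 of 22 cases in 2153 and none fell (median 0.66), beside the 29.4% and 23.6% of all genes. Mcm7, a subunit of the replicative helicase, averaged 315 ± 64 CPM (1.13 ± 0.09, adjusted p = 3.5e-19), Tyms, which makes thymidylate, 80.3 ± 22.8 CPM (0.99 ± 0.12) and the maintenance methyltransferase Dnmt1 529 ± 75 CPM (0.99 ± 0.08). Dnmt1 had a higher mean in 9263 (568 CPM). Only Rrm1 (0.00 ± 0.10) and Rrm2 (0.13 ± 0.18), the ribonucleotide reductase subunits, did not pass. Cdc25a and Gins1 lost the call without replicate 5, 6 or 7 of 2153 (at the lowest 0.16 and 0.30), Cdc25a also without replicate 1 of KPB1-A (0.21) or replicate 2 of T12 (0.22), and Mcm5 without replicate 6 (0.32, adjusted p = 0.06). Against the BALB/c models alone Cdc25a was at 0.08 (adjusted p = 0.565) and Gins1 at 0.25 (adjusted p = 0.245). Neither passed with limma (0.22 and 0.37), and Cdc25a, at 0.20 to 0.23, passed neither with DESeq2 or its size factors, nor without the filter, nor without T12 and E0771 in the reference.

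Across the other models the list was called in either direction. Of the 22, 9263 had 16 higher and 0 lower (median 0.54, beside 32.7% and 22.2% of all genes). 2336 had 12 and 1 (30.3% and 25.4%), 2225 11 and 1 (34.4% and 26.7%) and KPB1-A 10 and 0 (25.4% and 14.6%). 2208 had 3 and 7 (29.4% and 24.7%), 2224 4 and 4 (24.2% and 15%), E0771 9 and 2 (29.2% and 26.9%) and T12 0 and 7 (24.6% and 24%). In 2250, with the lowest Ccnd1, 13 of the 22 were higher and 4 lower (median 0.33, beside 32.3% and 27.9% of all genes), among them Rrm2 at 330 ± 73.3 CPM (2.14 ± 0.13, adjusted p = 2.91e-24) and Ezh2 at 21.3 ± 2.49 CPM (-1.95 ± 0.08, adjusted p = 1.78e-34). Ccne1 rose in 2250 to 53.5 ± 5.97 CPM (1.51 ± 0.12, adjusted p = 5.18e-19), as did E2f1 (0.92 ± 0.11) and Rb1 (0.98 ± 0.13). In 4T1, with the highest Ccnd1 of the 12, 1 was higher and 18 lower (median -0.65, beside 25.4% and 23.5%). In MMTV-NEU 21 were lower (28.3% of all genes) and in MMTV-PYMT 14 (20.3%), with none higher in either (33.8% and 30.6%). Rrm2, Ezh2 and E2f1 in 2250 were named after their values were seen.

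Partners of Cttn and Fadd were also read in 2153. Of 20 genes of branched actin and cortactin binding, 6 rose, 3 fell and 11 did not pass (median 0.01), beside 29.4% and 23.6% of all genes. Wasf1 (0.85 ± 0.14) and the ARP2/3 subunit Arpc1b (592 ± 32.8 CPM, 0.60 ± 0.15) rose, as did the actin-severing Cfl1 (0.50 ± 0.09). Each had a higher mean in another model: Wasf1 in 2336 (38.4 CPM), Arpc1b in 2250 (722 CPM) and Cfl1 in E0771 (1686 CPM). Dnm2 (-0.26 ± 0.07), Arpc5 (-0.22 ± 0.07) and Src (-0.21 ± 0.08), the kinase that phosphorylates cortactin, fell by small amounts. Src did not pass without replicate 1 (-0.15, adjusted p = 0.146) or replicate 4 of 2153 (-0.18, adjusted p = 0.0837). No gene of this list changed by a log2 difference of more than 0.85.

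Of 17 genes of the death receptor complex and its caspases, 11 rose, 4 fell and 2 did not pass in 2153 (median 0.46), again beside 29.4% and 23.6%. The receptor gene Fas (8.72 ± 2.4 CPM, 1.35 ± 0.17) and Casp8, the direct partner of FADD (68.9 ± 2.07 CPM, 0.67 ± 0.07, adjusted p = 3.55e-14), were among those that rose. The ligand gene Tnfsf10, which encodes TRAIL (2.19 ± 1.05 CPM, -1.67 ± 0.26), Ripk3 (-0.72 ± 0.15) and the adaptor Tradd (-0.63 ± 0.13) fell. Tnfsf10 was at -0.92 against the BALB/c models alone. Casp8 was higher still in 4T1 (86.2 ± 3.84 CPM) and KPB1-A (86.3 ± 5.74 CPM), so its level in 2153 was not the highest of the 13. Nor was that of Fas, which averaged 9.57 CPM in KPB1-A.

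Paralogues of the 7 genes did not move as a group in 2153: of 20, which include Ccnd2, Ccnd3 and Hcls1 from the lists above, 5 rose, 7 fell and 8 did not pass (median -0.11), beside 29.4% and 23.6%. Ano9, on chromosome 7 as well, averaged 16.8 ± 4.85 CPM (2.60 ± 0.29, adjusted p = 1.75e-12), a liprin-beta gene, Ppfibp2, 65.2 ± 10.8 CPM (1.26 ± 0.12) and Ano8 39.5 ± 7.48 CPM (0.39 ± 0.12). By mean, Ano9 was higher in KPB1-A (18.1 CPM), Ppfibp2 in MMTV-NEU (141 CPM) and Ano8 in T12 (185 CPM). Ano9 was at 1.44 and Ppfibp2 at 0.70 when T12 and E0771 were dropped from the reference. Ano8 was not called against the BALB/c models alone (0.11), and its plain mean over the other 12 models was 43.6 CPM, above that of 2153. Tpcn1, the nearest relative of Tpcn2, fell to 47 ± 7.81 CPM against 47.9 to 256 CPM elsewhere (-1.36 ± 0.12, adjusted p = 1.26e-16), and Ano4 fell to 0.0809 ± 0.0434 CPM (-2.84 ± 0.48, or -1.38 with limma at a pseudocount of 10). Shank1 (-0.59 ± 0.26, adjusted p = 0.0477) lay at the threshold and lost its call in 20 of the 34 fits that left out 1 library.

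**Figure D5:**
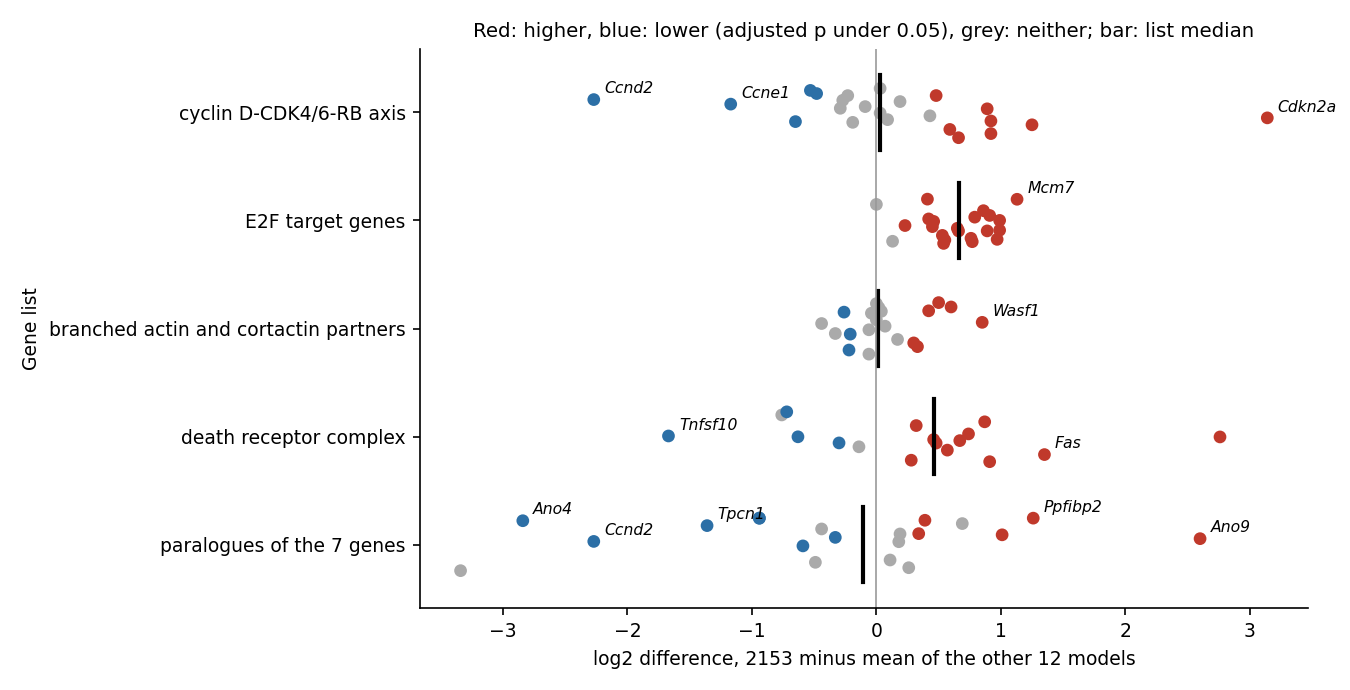
The log2 difference in 2153 of each gene in 5 lists, 1 point a gene, in red where higher and blue where lower at an adjusted p under 0.05, with a bar at the list median. The E2F target genes lie almost wholly to the right (median 0.66), while the cyclin D axis is spread on both sides with Cdkn2a at 3.14 and Ccnd2 at -2.27.

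Some cell type markers were also called in 2153. All 6 epithelial markers were higher there against the mean of log2 levels, which T12 and E0771 lower for Epcam and Cdh1. Their summed level was 3547 to 6134 CPM. It overlapped that of 2208, 2225, 2250, MMTV-NEU and MMTV-PYMT (2639 to 7227 CPM over the 5 models). Cdh1 averaged 316 CPM in 2153 and 385 to 788 CPM in these 5 models. Epcam averaged 1230 CPM in 2153 and 1613 CPM in MMTV-NEU, and Krt8 1273 CPM in 2153 and 1599 CPM in 2250. Fibroblast markers summed to 957 to 1468 CPM in 2153, with 3 of 6 lower, and endothelial markers to 91.2 to 139 CPM, with 2 of 5 lower. Smooth muscle markers summed to 92 to 335 CPM, with 3 of 4 lower. These calls use the same log2 reference, by which 23.6% of all genes were lower. All 3 medians of 2153 (1386, 112 and 134 CPM) lay inside the range of the other models' medians. Those ran from 701 (MMTV-NEU) to 3940 CPM (4T1) for fibroblast markers and from 65 (9263) to 235 CPM (T12) for endothelial markers. For smooth muscle markers they ran from 86.2 (MMTV-NEU) to 2535 CPM (2336). Adipocyte markers had none of 4 called by edgeR, at 12.6 to 33.5 CPM. Schwann cell markers summed to 393 to 741 CPM, with 1 of 4 higher and 2 lower. Their part in the levels of the 7 genes was not tested. In 2250 the epithelial sum was 3043 to 7227 CPM while Ccnd1 was at its lowest.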

How the data were processed

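Libraries were prepared with a poly(A) mRNA kit, per the labels' protocols. STAR, SAMtools, Picard and Salmon with build mm10 are named without versions, per the submitters' processing notes. The deposited table holds expected counts per gene. The authors' second table holds a normalized signal that, by its values, is each count over the library's 75th percentile of non-zero counts, times 1000, with 1 in place of 0. The 7 genes, the gene lists and the tests were chosen with earlier results of these data known.

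Counts were rounded and fitted with edgeR 4.0.16 in R 4.3.3: 22847 genes passed filterByExpr, run with the models as groups at its limits of 10 counts per library and 15 in all. TMM scaled the libraries, and a robust quasi-likelihood fit with 1 mean per model left 69 residual degrees of freedom. Every adjusted p is from that test with Benjamini-Hochberg adjustment over all genes tested, and a call needs one under 0.05. SE is the log2 difference over the square root of F. CPM are TMM scaled. Contrasts were 2153 minus the mean of the other 12 models, the F test among those 12, and each of them minus the mean of the other 11. Each reference is an unweighted mean of the models' log2 levels. The text names the 7 genes, the genes from Shank2 to the chromosome end and the 3 tested before it, the 3 largest called changes each way per list (mean of at least 1 CPM in 2153 or elsewhere) with Ccnd2, Ccnd3, Cdk4, Cdk6, Rb1 and Casp8, and the 5 genes most correlated with Ccnd1 and with Cttn (a model mean of at least 5 CPM). A few results covered by that rule are left out here. Others were named after their values were seen: Cdc25a, Gins1, Mcm5, Rrm1, Shank1, those from B230206H07Rik to Phlda2, and those named so in the text. Alternatives used DESeq2 1.42.0 (its size factors or its test), limma 3.58.1 on log2 of the authors' table plus 1 or 10, no filter, other references, and 34 fits leaving out 1 library each, with the genes and dispersion trend held. The scripts were tested on simulated data. Precision is limited by the number of libraries.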

Additional observations from a re-analysis of the deposited data

Results flagged for a closer look

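A Dixon test of the highest and lowest library was made for each of the 7 genes in each model with 4 to 10 libraries, 56 groups in all. Chance marks about 1 in 20 such groups, and 7 were marked. Replicate 1 of 2153 stood far above the other 6 libraries for Cttn (1541 CPM) and Ano1 (2849 CPM). Replicate 4 of MMTV-PYMT stood far above the other 4 for Ccnd1 (691 CPM, 3.06 times the mean of the rest), Tpcn2 (55.9 CPM, 3.37 times) and Fadd (28.3 CPM, 1.3 times). Ppfia1 was set apart in replicate 1 of 4T1 (108 CPM), and Ccnd1 was low in replicate 1 of 2224 (630 CPM). Of the 7 marks, 5 fell on only 2 libraries. The cause was not tested.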

How the results depend on the processing

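The log2 differences of the 7 genes in 2153 stayed positive under 41 alternatives: 3.90 to 4.07 for Ccnd1, 3.56 to 3.88 for Tpcn2, 2.90 to 3.99 for Ano1, 2.82 to 3.89 for Shank2, 2.68 to 2.83 for Ppfia1, 2.42 to 2.55 for Fadd and 2.16 to 2.25 for Cttn. The extremes of Ano1 and Shank2 came from dropping T12 and E0771 from the reference (2.90, 2.82) and from a BALB/c reference (3.99, 3.89). Genes called in 2153 ran from 6307 to 6783 higher and 4967 to 5461 lower with 1 library left out. A window of 1 Mb gave 7 higher and 0 lower genes, a count partly set by the filter, since 3 of the 7 passed it only through 2153, and genes of at least 5 CPM, an alternative chosen after seeing the data, gave 16 and 3. Of the 84 gene and model pairs, 73 kept their side of the threshold and none reversed. The 11 that changed are Ccnd1 in MMTV-PYMT, 7 others named in the report that lost their call without 1 library, and 3 under limma: Fadd in 2224 (-0.23) and Tpcn2 in MMTV-NEU (0.23) lost it and Cttn in E0771 (-0.26) gained it. Of 99 list genes, 15 changed call under at least 1 alternative and none reversed. No paired analysis was possible because the labels give no replicate numbers shared between models (the serial numbers in the titles all differ).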
